A study of Elaeis guineensis with 58 samples.

Results

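GSK is 1 of 27986 genes in count tables from the spear leaf of oil palm (Elaeis guineensis), and it was found by its symbol, which names a single gene there. The spear leaf (frond 0) is the youngest, still unopened frond. The palms were ortets, the palms whose tissue is cloned through somatic embryogenesis, and each was graded by the number of embryoid lines it had given before: none in zero palms, 1 to 89 in low palms and 90 or more in high palms. In all, 58 libraries came from 52 palms, and each palm is 1 replicate. GSK was selected on its level in high palms set against zero and low palms together, with InnuPREP libraries, so the difference of high palms from zero or low palms of that set is described here with no test.

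The palms came from 2 agencies. Agency L1 gave 15 low palms and 17 zero palms, 12 with the genotype label Dumpy Avros and 20 with Dumpy Yangambi Avros, and their RNA was extracted with CTAB, a detergent used for plant tissue rich in polysaccharides. Agency L2 gave 8 high, 6 low and 6 zero palms, whose RNA was extracted with the column-based InnuPREP kit. By genotype label, the 8 high palms of L2 comprised 6 Jen Avros palms, 1 Jen Avros Yangambi palm and 1 Yangambi_C palm. Its low palms comprised 4 of Yangambi_B with 1 each of Jen Avros and Yangambi_C, and all 6 zero palms were Yangambi_A. A second library, from CTAB, existed for 2 high, 2 low and 2 zero palms of L2. L1 libraries were read for 100 bases and L2 libraries for 50, per the labels. Agency, genotype label, read length and extraction therefore run together, and the 6 palms with both libraries are the place where extraction can be set apart from the palm. Anything else that differed in how those paired libraries were made goes with extraction there and cannot be told apart from it.

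In plants the symbol GSK is used for the glycogen synthase kinase 3-like or SHAGGY-like protein kinases. The best-studied member in Arabidopsis, BIN2, phosphorylates the BZR1 and BES1 transcription factors and holds brassinosteroid responses down until the hormone, bound by the receptor BRI1, leads to its inactivation. Neither the count tables nor the RefSeq gene table gives a product for oil palm GSK, so this is background from the symbol.

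The library kit reads the 3′ end of polyadenylated RNA, and levels are given as CPM, that is, reads of a gene relative to all gene counts of its library after TMM scaling. In leaf RNA in bulk, fewer cells of a type and less RNA per cell cannot be told apart. All 6 green leaf markers, which are plastid genes of photosynthesis, were found in the tables. They summed to between 931 and 18537 CPM in L1, 1564 and 5225 CPM in L2 CTAB libraries, and 971.4 and 3957 CPM in L2 InnuPREP libraries. Of 8 floral organ genes, 4 were found (AG2, DEF1, GLO2 and SQUA1), and their sum was at most 9.09 CPM in any library. In L2 InnuPREP libraries that sum ran from 1.87 to 5.93 CPM in high palms (median 4.18), from 2.39 to 3.82 in low palms (median 2.63) and from 1.61 to 4.52 in zero palms (median 2.64), with AG2 at 0 in every low palm. The part of these genes' level in the GSK differences was not tested.

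GSK was counted in every library, with 41 to 690 reads out of 3943437 to 15004694 gene counts. Its level ran from 3.91 to 199.4 CPM, a 51.0-fold range. Counting alone gave each library a relative error between 3.81% and 15.6%. The lowest library, L2 zero palm 4, had 41 reads (exact 95% Poisson interval 29.4 to 55.6), and the highest, L1 low palm 11, had 690 (639.5 to 743.5). These intervals cover counting error only.

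**Figure D1:**
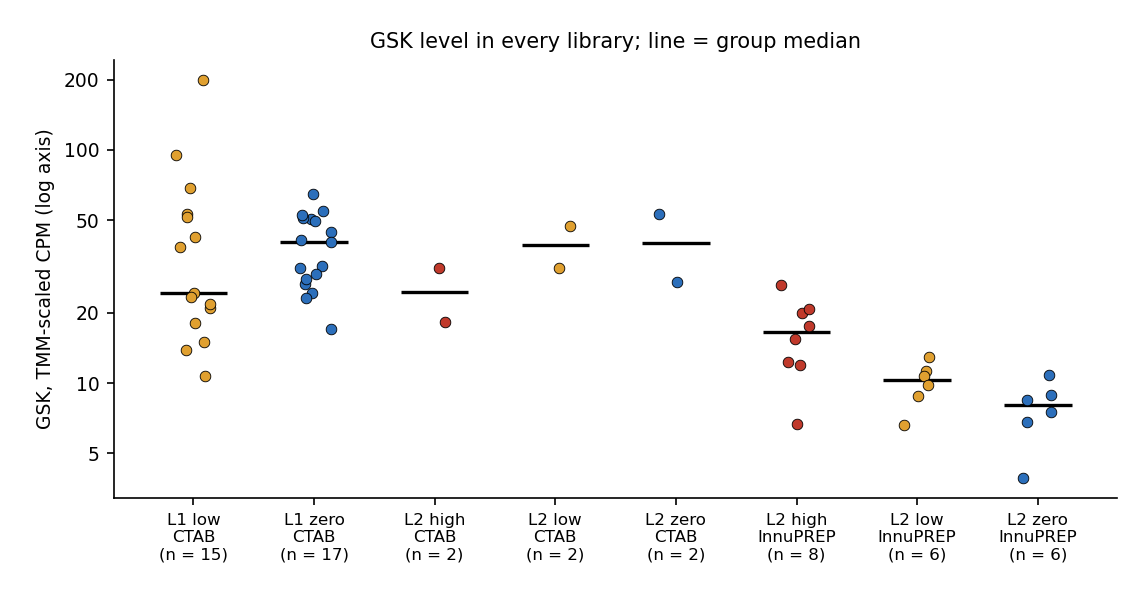
GSK level in each of the 58 libraries (TMM-scaled CPM, log axis), by agency, embryogenesis group and extraction; each point is a library, each line a group median. The L2 InnuPREP libraries lie between 3.91 and 26.4 CPM, while 5 of the 6 CTAB libraries of L2 lie above all of them.

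Ranked by median, GSK stood at 40.2 CPM in L1 zero palms, 40.01 in L2 zero CTAB libraries, 39.0 in L2 low CTAB libraries, 24.7 in L2 high CTAB libraries, 24.4 in L1 low palms, 16.5 in L2 high, 10.3 in L2 low and 8.01 in L2 zero InnuPREP libraries. The ranges of every neighbouring pair in that order overlapped. The 3 groups extracted with InnuPREP held the 3 lowest medians, and all CTAB groups of both agencies lay above them. The plot of levels by group shows this step.

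Among the InnuPREP libraries of L2, GSK was highest in the high palms. It had 6.65, 11.9, 12.3, 15.5, 17.6, 19.9, 20.7 and 26.4 CPM in the 8 high palms (palms 8, 5, 6, 1, 4, 3, 7 and 2), with a mean of 16.4 ± 6.15 CPM (SD). In the 6 low palms it had 6.63, 8.83, 9.80, 10.7, 11.3 and 12.9 CPM, a mean of 10.0 ± 2.16. In the 6 zero palms it had 3.91, 6.77, 7.54, 8.48, 8.88 and 10.9 CPM, a mean of 7.74 ± 2.34. Of the 8 high palms, 5 lay above every low and zero palm, 7 lay above every zero palm, and high palm 8 lay among the lowest of all.

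The fitted difference of high from zero-low palms was 0.88 ± 0.22 on the log2 scale (SE, edgeR). Of all genes tested in this contrast, 40.5% passed an adjusted p of 0.05, and GSK's log2 difference was above that of 90.6% of them. High palms differed from zero palms by 1.08 ± 0.26 and from low palms by 0.70 ± 0.26. These values are those the gene was chosen by and carry no test.

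The low and zero palms of L2 had no part in the choice other than as its common reference. GSK was 0.38 ± 0.27 (log2, SE) higher in low palms than in zero palms, which did not pass (edgeR adjusted p = 0.603, where 0.176% of genes passed). Of the 6 low palms, 2 exceeded the highest zero palm and 5 exceeded the zero median. An exact two-sided permutation test of the log2 CPM of 6 against 6 palms gave p = 0.119. The genotype labels of these low and zero palms do not overlap, and here the 2 labels, group and genotype, cannot be told apart.

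Genotype follows the groups in L2 almost throughout. In the 6 high Jen Avros palms GSK ran from 11.9 to 26.4 CPM (median 16.5), against 8.83 in the single low Jen Avros palm. The high Yangambi_C palm had 20.7 CPM and the low one 6.63. These are the 2 labels found in both groups, and in each the high palms were above the low palm, with 1 low palm apiece and no test. The high palm labelled Jen Avros Yangambi had 6.65 CPM, below both of the other labels among high palms. The 4 low Yangambi_B palms lay close together at 9.80 to 12.9 CPM, and the 6 zero Yangambi_A palms at 3.91 to 10.9 CPM. With genotype as a term, the high against zero-low difference was 1.20 ± 0.35 (log2, SE), resting on the 9 palms of those 2 labels.

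GSK was higher with CTAB than with InnuPREP in all 6 palms that had both libraries. High palm 3 had 31.1 CPM with CTAB and 19.9 with InnuPREP, a ratio of 1.57. High palm 8 had 18.2 CPM with CTAB and 6.65 with InnuPREP, a ratio of 2.74. The high palms thus gave the 2 smallest ratios. Low palm 5 had 31.0 CPM with CTAB and 10.7 with InnuPREP (2.89), and low palm 6 had 47.0 and 9.80 (4.80). Zero palm 2 had 52.95 CPM with CTAB and 10.9 with InnuPREP (4.87), and zero palm 6 had 27.1 and 7.54 (3.59). Every CTAB library lay above its InnuPREP partner, and all but that of high palm 8 lay above each of the 20 InnuPREP libraries.

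GSK averaged 34.6 ± 12.96 CPM in the 6 CTAB libraries and 10.9 ± 4.72 CPM in the InnuPREP libraries of the same palms (SD, n = 6 palms each). The paired log2 difference was 1.65 ± 0.19 (SE, edgeR with palm as a block, adjusted p = 1.24e-05). The exact two-sided sign-flip permutation test over the 6 palms gave p = 0.03125, the smallest that 6 pairs can give. The extraction difference was broad, since 56.9% of genes passed and 26.9% passed with a higher level in CTAB. GSK's log2 difference was above that of 99.2% of the genes tested.

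**Figure D2:**
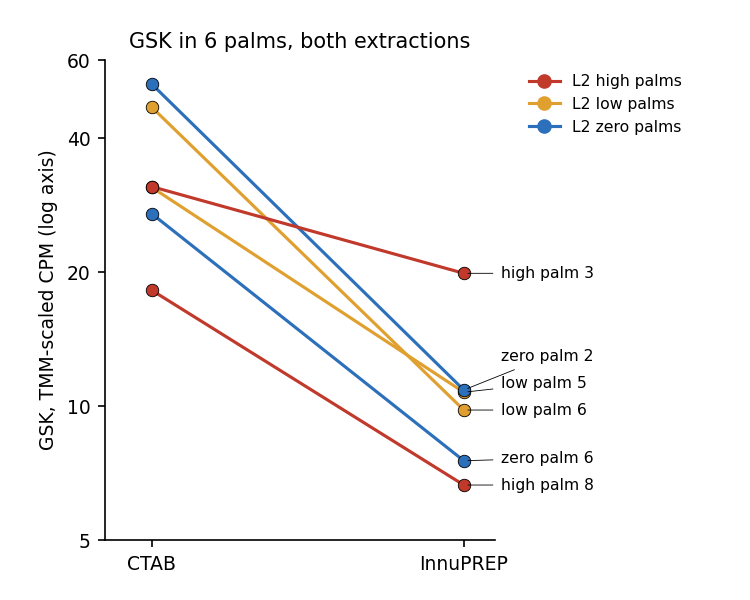
GSK level (TMM-scaled CPM, log axis) in the CTAB and InnuPREP libraries of the same 6 L2 palms, a line per palm, coloured by embryogenesis group. All 6 lines fall towards InnuPREP, and the lines of the 2 high palms are the least steep, at ratios of 1.57 and 2.74.

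Set side by side on the log2 scale, the extraction difference of 1.65 ± 0.19 was larger than the 0.88 ± 0.22 between high and zero-low palms, a gap that was not itself tested. The SD between the 6 palms was 0.55 with CTAB and 0.54 with InnuPREP, close to the SD of their paired differences, 0.60. In the 6 palms the estimated group difference was negative with CTAB and positive with InnuPREP. This rests on 2 high palms and was not tested. High palms averaged 24.7 ± 9.15 CPM (SD, n = 2) against 39.5 ± 12.4 (n = 4) in zero-low palms with CTAB, and 13.3 ± 9.36 against 9.74 ± 1.54 with InnuPREP. The fitted high against zero-low difference was -0.66 ± 0.38 with CTAB and 0.44 ± 0.44 with InnuPREP (log2, SE). With the CTAB library in place of the InnuPREP one for those 6 palms, the difference over all 20 palms was 0.029 ± 0.42. That fit had no term for extraction, and CTAB libraries stood for 2 of 8 high and 4 of 12 zero-low palms. Its value therefore mixes the group difference with the extraction difference.

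The extraction difference averaged 1.03 (log2 CPM, SD 0.55) over the 2 high palms, against 1.95 (SD 0.36) over the 4 zero-low palms. The interaction was -1.01 ± 0.27 (log2, SE), the high palms having the smaller extraction difference. Its InnuPREP values are among those that chose GSK, so it is a description and carries no test. Without high palm 8 the interaction was -1.36, and without high palm 3 it was -0.58, and each of those fits rests on a single high palm.

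The order of the palms differed between extractions. Over the 6 palms the log2 CPM of the pairs had a Pearson r of 0.39 (exact permutation p = 0.446), and rho after Spearman was 0.71 (exact permutation p = 0.136). Neither value passed, and r was 0.64 with the 2 palms most distant from the median left out. Spearman's rho was 0.43 without scaling factors and 0.49 with plastid genes left out. Ranked from the lowest, high palm 3 was 4 of 6 with CTAB and 6 of 6 with InnuPREP, and high palm 8 was 1 of 6 with both. Without high palm 8 r was -0.028, and without high palm 3 it was 0.84.

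**Figure D3:**
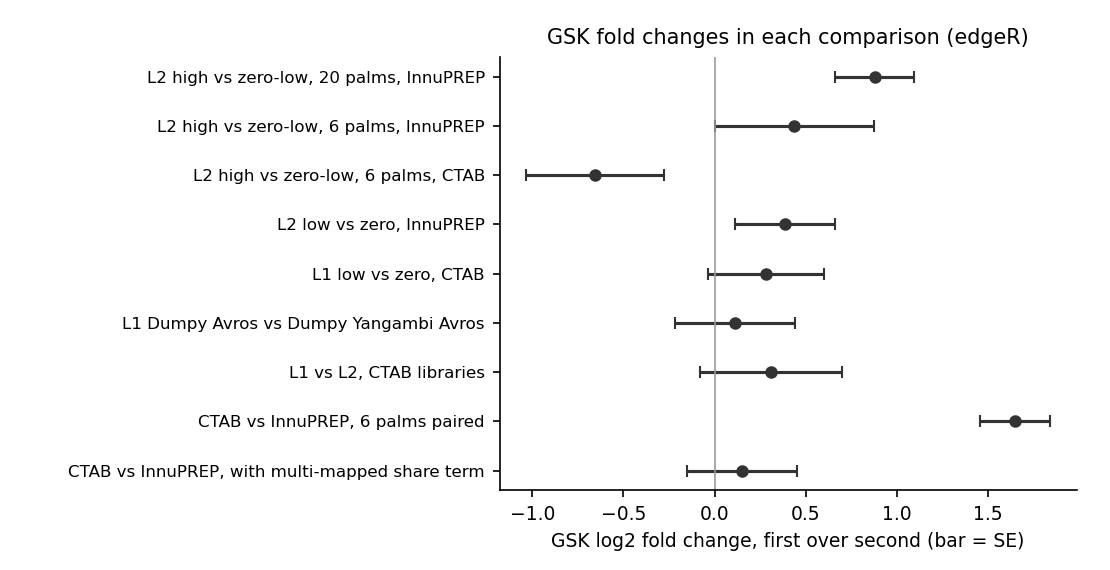
GSK log2 fold change in each comparison, named group first over second; points are edgeR estimates and bars are SE. The extraction difference of 1.65 is the farthest from 0, and the high against zero-low difference is 0.88 over 20 InnuPREP palms, 0.44 over 6 palms with InnuPREP and -0.66 over the same 6 with CTAB.

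In L1, whose palms were not used to choose GSK, low and zero palms overlapped widely. GSK ran from 10.7 to 199.4 CPM in the 15 low palms (median 24.4, mean 46.4 ± 48.4 SD) and from 17.0 to 64.6 CPM in the 17 zero palms (median 40.2, mean 38.8 ± 13.6). The low palms were thus above zero palms in the mean and below them in the median. Of the low palms, 3 lay below every zero palm, at 10.7, 13.9 and 15.1 CPM, and 3 lay above every zero palm, at 68.5, 95.3 and 199.4 CPM.

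The L1 difference was 0.28 ± 0.32 (log2, SE, edgeR adjusted p = 0.884), which did not pass. No gene of 18434 passed (0%) in edgeR, DESeq2 or limma-voom, and 1337 had an unadjusted p under 0.05 in edgeR. The direction turned without low palm 11, the library at 199.4 CPM, to -0.12. It also turned in limma-voom, at -0.17, and in the mean log2 CPM, at -0.14 (permutation p = 0.658). Within Dumpy Avros palms GSK had a median of 51.5 CPM in 7 low palms and 41.1 CPM in 5 zero palms. Within Dumpy Yangambi Avros palms the medians were 22.2 CPM in 8 low palms and 36.0 CPM in 12 zero palms. Low palm 11 has that label, and the fit there was positive although the median of the low palms was below that of the zero palms. Neither fit within a genotype label passed (log2 0.42 ± 0.42 and 0.17 ± 0.44, edgeR adjusted p of 1 and 0.945).

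The low palms of L1 were more spread than the zero palms. The SD of log2 CPM was 1.15 in low palms and 0.53 in zero palms, and the mean absolute deviation from the group median was 0.90 and 0.45. A two-sided permutation test of these deviations, added after the spread was seen, gave p = 0.0319. Without low palm 11 the SD in low palms was 0.93 and the p was 0.0736.

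The genotype labels of L1 did not differ in GSK beyond the spread. Dumpy Avros palms ran from 17.0 to 95.3 CPM (median 46.3, mean 44.6 ± 23.2 SD, n = 12), and Dumpy Yangambi Avros palms from 10.7 to 199.4 CPM (median 30.2, mean 41.1 ± 39.9, n = 20). The difference was 0.11 ± 0.33 (log2, SE, edgeR adjusted p = 0.958). No gene of 18689 passed (0%) in edgeR, 14 passed in DESeq2, and 1315 had an unadjusted p under 0.05 in edgeR. The value was -0.071 within zero palms and -0.048 without low palm 10. Without low palm 11, the Dumpy Yangambi Avros palm at 199.4 CPM, it was 0.44 ± 0.25 (log2, SE, edgeR adjusted p = 0.614). In limma-voom it was 0.32 ± 0.24 (limma-voom adjusted p = 0.651).

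With the same extraction, the difference between the agencies in GSK did not pass. The 32 L1 palms averaged 42.4 ± 34.2 CPM (median 35.1) and the 6 CTAB libraries of L2 34.6 ± 12.96 CPM (median 31.1). Of the L1 palms, 22 lay within the range of the L2 CTAB libraries, 5 lay below it and 5 above it, whereas 21 lay above every InnuPREP library of L2. The difference of L1 from L2 with CTAB was 0.31 ± 0.39 (log2, SE, edgeR adjusted p = 0.56), where 36.2% of genes passed. It was 0.13 without L1 low palm 11, the highest library, and 0.48 without zero palm 2 of L2. In limma-voom it was 0.095, without scaling factors 0.13, with zero and low palms only 0.12, and with terms for library quality -0.010 ± 0.48.

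Within a group, no relation of GSK to the number of embryoid lines passed. In the 8 high palms, which had given between 91 and 534 lines, log2 CPM and log2 lines gave r = 0.26 by Pearson (exact permutation p = 0.538) and rho = 0.14 by Spearman (exact permutation p = 0.752). In the 6 low palms of L2 r was -0.29 (exact permutation p = 0.504) and rho -0.03 (exact permutation p = 1). In the 15 low palms of L1 r was -0.19 (permutation p = 0.492) and rho -0.30 (permutation p = 0.266). Adjusted over the 3 groups, p was 0.538 for every r and at least 0.797 for every rho. Leaving out the 2 palms whose line number was most distant from the median, r was -0.53, 0.21 and -0.04 in the same 3 groups. The palm with the most lines, high palm 3 with 534, had 19.9 CPM, and high palm 7 with the fewest, 91, had 20.7 CPM.

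The share of reads with several alignments, which the count tables list apart from genes, moved with GSK. It was 24.9% ± 5.77 in the 6 CTAB libraries and 13.5% ± 3.48 in the InnuPREP libraries of the same palms (SD, n = 6 palms each), and it was higher with CTAB in all 6 palms. Across those palms a larger gap in this share tended to go with a larger gap in GSK. The gap in the share was 4.14 percentage points in high palm 3, where GSK's log2 difference was 0.64. It was 17.3 points in zero palm 2, where GSK's difference was 2.26. Low palm 5 and zero palm 6 stood in the other order, at 12.8 and 10.5 points with GSK differences of 1.51 and 1.81. Pearson's r between the paired differences was 0.93 and rho 0.94, and r was 0.69 without the 2 palms farthest from the median. The high palms had the smallest gaps in both GSK and the share. Since the InnuPREP values here are among those that chose GSK, this relation is a description and carries no test.

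A fit of the 6 pairs with this share as a further term was added after the relation was seen. It gave an extraction difference of 0.15 ± 0.30 (log2, SE), which is a description and carries no test. The interaction was then -0.18 ± 0.40. Because the share was higher with CTAB in each palm, it and the extraction cannot be told apart in these pairs. The same holds for the total of gene counts, lower with CTAB in all 6 palms. It also holds for the share of reads in no annotated gene, higher with CTAB in all 6. Between paired differences, GSK's r was 0.81 with that share, 0.84 with the share of the 10 most abundant genes and 0.81 with the plastid share. It was -0.30 with the share of ambiguous reads and -0.36 with the log2 total, all without a test. Plastid genes also took more of the gene counts with CTAB, 6.24% ± 1.19 against 3.13% ± 0.80 with InnuPREP (SD, n = 6 palms each), and leaving them out of the fit left the extraction difference at 1.65.

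**Figure D4:**
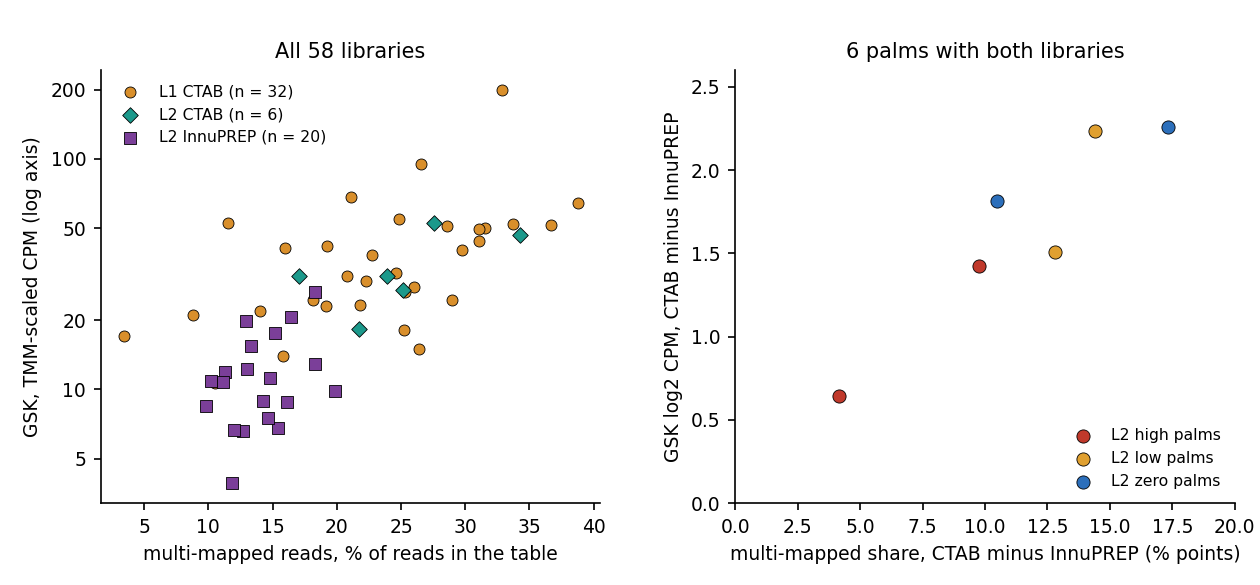
Left, GSK level (TMM-scaled CPM, log axis) against the share of reads with several alignments in each library; right, the CTAB minus InnuPREP difference of GSK log2 CPM against that of the share (percentage points) in the 6 palms. GSK is higher where the share is higher among L1 libraries (r = 0.56) and among the 6 pairs (r = 0.93).

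The same share was related to GSK inside L1, where all libraries were CTAB. Over the 32 L1 palms r was 0.56 (permutation p = 0.00084, adjusted p = 0.0143) and rho 0.56 (adjusted p = 0.016), and r was 0.52 without the 2 farthest palms and 0.55 without low palm 11. In the 17 zero palms alone r was 0.81 (adjusted p = 0.00126, permutation), and in the 15 low palms it was 0.49 (adjusted p = 0.146, permutation). GSK's r in L1 was above that of 98.1% of 21991 genes, whose median r was -0.03. This is a description across genes, which are not independent.

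With InnuPREP the relation was weaker over the 20 L2 palms, at r = 0.35, above that of 95.4% of genes. Those palms hold the group difference that chose GSK, so this r carries no test. Within the groups the relation did not pass after adjustment. There r was 0.78 in the 8 high palms (exact permutation p = 0.021, adjusted p = 0.0629), falling to 0.59 without the 2 farthest. In the 12 zero-low palms it was 0.27 (adjusted p = 0.562, permutation). The mean share was 14.1% ± 2.38 (SD, n = 8) in high palms, 15.5% ± 3.30 (n = 6) in low palms and 12.7% ± 2.41 (n = 6) in zero palms. With this share, the plastid share and the total as terms, the high against zero-low difference was 0.80 ± 0.20 (log2, SE) and that of high from zero palms 0.87 ± 0.26. The low against zero difference was then 0.12 ± 0.27 (edgeR adjusted p = 0.904), against 0.38 without these terms.

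Of 42 relations of GSK with 6 library measures in 7 sets of samples, 10 passed by Pearson's r and 3 by Spearman's rho after adjustment over all 42. Some of these sets hold the InnuPREP values that chose GSK, so the counts are a description. In L1 the share of reads in no annotated gene passed by r (0.56, adjusted p = 0.0143, permutation) and by rho (0.55, adjusted p = 0.016, permutation). Within the 12 zero-low palms of L2 that share had r = 0.69 (adjusted p = 0.0475, permutation) and rho = 0.64 (adjusted p = 0.114, permutation). Within the 8 high palms its r was 0.45 (exact permutation adjusted p = 0.413). The total of gene counts also passed by r in L1 (r = -0.51, adjusted p = 0.0202, permutation). The plastid share passed there as well (r = 0.50, adjusted p = 0.03, permutation). Neither the total nor the plastid share passed by rho (adjusted p = 0.0543 each, permutation). GSK was thus higher in L1 libraries with fewer gene counts. Over the 20 InnuPREP palms of L2 the largest r, 0.55 (rho 0.51), was with the share of gene counts taken by the 10 most abundant genes. Those palms hold the group difference that chose GSK, so this r is a description and carries no test. Within the 8 high palms that r was 0.41 (exact permutation adjusted p = 0.463), and within the 12 zero-low palms it was -0.0095 (adjusted p = 0.976, permutation). The fits with quality terms held no term for that share, and its part in the L2 differences was not tested. In L1 the fits with quality terms gave 0.39 ± 0.28 for low against zero palms (log2, SE, edgeR adjusted p = 0.98). They gave 0.45 ± 0.30 for Dumpy Avros against Dumpy Yangambi Avros palms (edgeR adjusted p = 0.777), against 0.11 without these terms.

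The genes most like GSK were sought by the smaller of its 2 Pearson correlations of log2 CPM within groups, over 20 L2 InnuPREP palms and over 32 L1 palms, among 16989 genes whose mean log2 CPM reached 1 in both sets. The median of that measure over all genes was -0.20, and the 5 highest genes reached 0.66 to 0.71. LOC105059588 had r = 0.71 in L2 and 0.77 in L1, and LOC105060754 had 0.81 and 0.71. The lowest were LOC105056839 (r = -0.86 in L2, -0.16 in L1) and LOC105049051 (r = -0.83 and -0.10). None of these has a product name in the tables used here. Among the other genes listed by a symbol of their own, ADPRF stood highest at 0.20, and CPRF lowest at -0.64.

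The 5 genes most like GSK across palms were also compared between extractions. LOC105059588 averaged 23.0 ± 5.35 CPM with CTAB and 13.6 ± 2.53 with InnuPREP (SD, n = 6 palms each), a log2 difference of 0.74 ± 0.11 (SE, edgeR adjusted p = 1.93e-05). LOC105060754 averaged 17.4 ± 8.55 CPM with CTAB and 16.5 ± 11.5 with InnuPREP, a difference of 0.15 ± 0.19 (edgeR adjusted p = 0.514). The third, LOC105056611, averaged 3.27 ± 1.32 CPM with CTAB and 5.87 ± 1.80 with InnuPREP, and its difference of -0.87 ± 0.20 (edgeR adjusted p = 0.00105) ran opposite to that of GSK. LOC105051279 and LOC105054526 were higher with CTAB by 0.44 ± 0.16 and 0.46 ± 0.11 (edgeR adjusted p = 0.0309 and 0.00219). All 5 estimates were below the 1.65 of GSK, a gap that was not itself tested.

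No annotated gene of the RefSeq table overlaps GSK. Its neighbours there are LOC105036536 and LOC105044949, and LOC105044949 had too few counts to be tested. LOC105036536 was lower with CTAB than with InnuPREP by a log2 difference of -0.53 ± 0.09 (SE, edgeR adjusted p = 6.37e-05), the opposite direction to GSK. In L1 it differed by 0.49 ± 0.23 between low and zero palms (edgeR adjusted p = 0.684), and in L2 by -0.07 ± 0.27 (edgeR adjusted p = 0.943). Between high and zero-low palms of L2 it was higher in high palms by 0.64 ± 0.21 (edgeR adjusted p = 0.0174), the same direction as GSK. In that contrast 40.5% of all genes tested passed.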

How the data were processed

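Spear leaf RNA of 52 palms was measured in 58 libraries made with a QuantSeq forward 3′ kit, per the labels. The deposited values are unnormalized counts of reads for each gene. The submitters' processing notes name HTSeq 0.11.2, STAR 2.7.2b and bcl2fastq; their settings, the strand setting and the genome build are not given in the sources used here. The 5 summary lines of each table, among them the reads with several alignments, entered neither library sizes nor tests. Depth was between 3943437 and 15004694 gene counts per library, and no libraries held identical values.

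Counts were scaled with TMM and, after the low-count filter of edgeR, fitted by its quasi-likelihood test (edgeR 4.0.16, R 4.3.3), with Benjamini-Hochberg adjustment over all genes tested and a threshold of 0.05. The CTAB comparison was blocked by palm, because the label of the palm ties the libraries: same-palm pairs deviated together (r between 0.66 and 0.78, at most 0.23 between palms). The planned test of the interaction of extraction with group is given as a size only, since its InnuPREP values chose GSK. Log2 CPM used a prior count of 2. Single comparisons used exact permutation tests, or 100000 resamples where a group had 10 or more palms. DESeq2 1.42.0, limma 3.58.1 (voom with quality weights), other scalings, filters, terms and subsets of palms were alternatives.

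GSK, the marker lists, the comparisons and the alternatives were chosen with earlier results of these data known. The genes named beside GSK were the 5 most like it and the 3 least like it by the measure given, values being printed for these 5 and for 2 of the 3, and its neighbours and the symbol genes were added after seeing the data. Lists of GSK relatives and of brassinosteroid genes were planned by protein similarity or product name and were not used here, because the reference table names no products. Of 27986 identifiers, 25047 were found in it by symbol.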

Additional observations from a re-analysis of the deposited data

How the results depend on the processing

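The sign of GSK's difference and its side of the threshold held under rescaling by RLE or without scaling factors, without plastid genes, and after thinning counts to the smallest library. The difference of high from zero-low L2 palms was 0.75 to 1.00 with 1 palm left out, but -0.66 in the 6 palms with CTAB alone. It was 0.029 with CTAB libraries for the 6 palms that have them, a fit that mixes extractions with no term for extraction. The L1 low against zero difference was -0.12 to 0.36 with 1 palm left out, -0.17 in limma-voom and -0.14 as a mean of log2 CPM. The L1 genotype difference was -0.048 to 0.44 with 1 palm left out and -0.071 within zero palms, and 0.45 with library quality terms. L1 against L2 with CTAB was 0.13 to 0.48 with 1 palm left out, 0.13 without scaling factors, 0.095 in limma-voom, 0.12 with zero and low palms only and -0.010 with library quality terms. The extraction difference was 1.53 to 1.89 with 1 palm left out, 1.66 with no replicate block (edgeR adjusted p = 0.00398) and 0.15 with a term for the multi-mapped share. The interaction was -1.36 to -0.58 with 1 palm left out and -1.01 with no filter on low counts. The r between extractions was -0.028 to 0.84 with 1 palm left out. L2 low against zero was 0.25 to 0.50 with 1 palm left out and 0.12 with library quality terms, and did not pass in any setting run. The causes of these shifts were not tested. Genes passing numbered 1218 with genotype as a term against 8113 without (high against zero-low), and 0 in the 6 palms with either extraction. They numbered 36 for L2 low against zero, against 331 in DESeq2, 1260 in limma-voom, 16 with no filter, 14 without scaling factors, 1 with Yangambi_B low palms only and 3 to 147 with 1 palm left out. For extraction they numbered 10905, against 2875 with no replicate block and 2811 with the multi-mapped term, and for L1 against L2 2907 with quality terms against 7255. The list of GSK relatives was not run. The group and extraction differences rest on few palms, 2 of them high in both extractions, and genotype is tied to group in L2. The multi-mapped term, the fits within genotype labels or groups, and the Yangambi_B subset were chosen after seeing the data.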
